A study of Mus musculus with 1119 samples.

Results

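The 44 genes described here encode the machinery that copies DNA, together with suppliers of its building blocks and controllers of entry into S phase. They were chosen by name and found by symbol, each on 1 row in each of 3 tables of TPM, a share of the transcripts of a library scaled by gene length, among 46609 rows in all. Every cell of the series was read for them, 1119 in number, and each cell was sequenced as a library of its own by Smart-seq2, a full-length method that does not record strand.

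The cells were sorted from mouse back skin of mixed sex between postnatal day 21 (P21), when the hair follicle rests (telogen), and P30, when it grows (anagen). From mice that carried Lgr5-eGFPiresCreER and R26-tdTomato, a reporter of Lgr5 with an inducible recombinase, came 39 bulge stem cells and 71 hair germ cells at P21, 73 hair germ cells at P23-P24, 16 hair germ cells at P25-P27, and cells annotated as matrix at P25-P27 on 3 plates of 55, 76 and 68 cells. From Lhx2-GFP (CD1) mice came the P30 hair bulb, annotated as matrix cells on 5 plates of 74 to 81 cells, and from K14-H2BGFP;LEF1-RFP mice the P30 dermal papilla, on 4 plates of 77 to 87 cells. All were sorted on the fluorescent reporters together with surface proteins, integrin α6, integrin b1, CD34 and Pcadherin for the epithelium, with Sca-1 at P30, and integrinα9 and CD117 for the papilla. The hair germ is the small cluster of epithelial cells at the base of the resting follicle, the matrix the dividing compartment that builds the hair, and the dermal papilla the mesenchyme that signals to both. The 3 tables hold different strains and sorts, so values of P30 are set beside those of earlier ages and not compared with them. The labels name no animals, and each group of cells therefore counted as 1 sample, with no test of any difference. Intervals of shares are exact binomial intervals at 95% that cover the counting of cells only.

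Plates, shown as a technical spread, held 2 to 87 cells, and each germ group of P21 and P23-P24 stood on 1 plate, so that plate and age cannot be told apart there. Read depth is not recorded in TPM. A gene was called seen in a cell at a TPM of 1 or more, and by plate the median cell showed 6199 genes in P21 germ, 6845 in P23-P24 germ and 5160 to 6092.5 in P25-P27 matrix. Near-empty wells with under 2000 genes numbered 3 in P21 germ, 5 in P23-P24 germ, 3 in P25-P27 matrix, 5 in the P30 hair bulb and 33 in the dermal papilla. The annotated types were checked against marker lists. At least 3 of 6 basal keratinocyte markers were seen in 97.3% of P23-P24 germ cells and in 96.5% of P25-P27 matrix cells, and at least 3 of 10 dermal papilla markers in 90.2% of papilla cells. Of 8 matrix markers, 3 were seen in 30% or more of the P25-P27 matrix cells and 7 in 30% or more of the P30 hair bulb cells. The same count was 3 in P21 bulge, 4 in P21 germ, 3 in P23-P24 germ and 3 in P25-P27 germ. It therefore did not set the P25-P27 matrix cells apart, and matrix is used for them as the authors' annotation. In the P25-P27 matrix cells, 6 of 8 bulge markers and 6 of 6 hair germ markers also passed that share. In the hair bulb, 89.1% of cells carried at least 3 of 6 basal keratinocyte markers. At least 3 of 6 melanocyte markers were seen in 50.8% of bulb cells, and their summed TPM had a median of 28.4 (0 to 17014).

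Replication starts at origins that the origin recognition complex marks and that Cdc6 and Cdt1 load with the ring of Mcm2 to Mcm7, the helicase that will open the double strand. Cdc45, the GINS complex and Mcm10 turn the loaded ring into a moving helicase, polymerases copy both strands behind it on the sliding clamp Pcna, and nucleases and ligase join the pieces of the lagging strand. Most of these genes are transcribed at the border of G1 and S phase by E2F factors, which cyclin E and its kinase release from the retinoblastoma proteins, whereas genes of mitosis such as Mki67, Top2a and Cdk1 follow later in the cycle.

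Because E2F sites are the textbook link between these genes, their promoters were searched in the RefSeq sequences of GRCm38.p6, which held windows for 37 of the 44 (not Mcm4, Gins1, Gins2, Prim2, Pole, Rfc2 and Ccne2). An exact E2F word (TTTCCCGC, TTTCGCGC, TTTGCCGC or TTTGGCGC, either strand) stood in the 250 bases before a start of 8 members, 21.6% of those matched, against 2.16% of all 27025 genes of the table. The 8 were Cdc6, Orc1, Mcm5, Mcm6, Mcm7, Pola1, Rfc3 and Hells. The word CCAAT stood before 21 members (56.8%, against 37.5% of all genes) and TTTGAA before 4 (10.8%, against 18.3%). Printed here are the 3 members with an E2F word that differed most between P21 and P23-P24 germ cells, and Ccne1, which differed least. Each runs 5′ to 3′ on the gene's strand and ends at the base before the start, with E2F words in capitals.
Mcm5, chr8:75109356-75109508, plus strand: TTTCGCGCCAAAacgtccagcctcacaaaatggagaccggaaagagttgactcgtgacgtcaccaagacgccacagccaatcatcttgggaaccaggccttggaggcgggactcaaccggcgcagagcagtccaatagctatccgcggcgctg
Mcm6, chr1:128359706-128359855, minus strand: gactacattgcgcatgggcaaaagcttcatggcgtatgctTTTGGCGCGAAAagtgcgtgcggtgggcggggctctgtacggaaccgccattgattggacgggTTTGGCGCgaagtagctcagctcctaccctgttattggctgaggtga
Mcm7, chr5:138171884-138172048, minus strand: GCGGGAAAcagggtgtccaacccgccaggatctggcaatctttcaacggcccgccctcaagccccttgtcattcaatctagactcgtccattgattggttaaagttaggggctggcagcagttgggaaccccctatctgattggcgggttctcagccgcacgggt
Ccne1, chr7:38107491-38107640, minus strand: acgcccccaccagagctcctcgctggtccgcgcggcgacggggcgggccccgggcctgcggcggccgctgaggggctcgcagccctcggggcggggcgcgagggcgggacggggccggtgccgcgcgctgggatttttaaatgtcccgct
In Mcm5 the first capitals hold 2 overlapping words on opposite strands, and Mcm6 holds 3 words, of which 2 overlap. The word of Mcm7 lies on the opposite strand in 1 of its 2 windows. A match is a description of letters, and its absence says only that these letters are not in this window. Members with an E2F word had a median difference of 2.43 between P23-P24 and P21 germ cells, on the scale of mean log2(TPM + 1), and those without one 2.26.

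For all 44 members, mean TPM was higher in P23-P24 germ cells than in any other group of their table. A cell of that group showed a median of 36 of the 44 at a TPM of 1 or more (0 to 44 over cells), against 10 in P21 bulge cells (4 to 17), 11 in P21 germ cells (0 to 32), 10 in P25-P27 germ cells (6 to 17) and 11 in P25-P27 matrix cells (0 to 44). In the other tables the median was 18 in the P30 hair bulb (0 to 44) and 7 in the dermal papilla (0 to 35). The summed TPM of the members had a median of 1414 in P23-P24 germ cells against 275.6 in P21 germ cells and 201.7 in P25-P27 matrix cells, and their ranges overlapped, with single matrix cells as high as 2927.

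**Figure D1:**
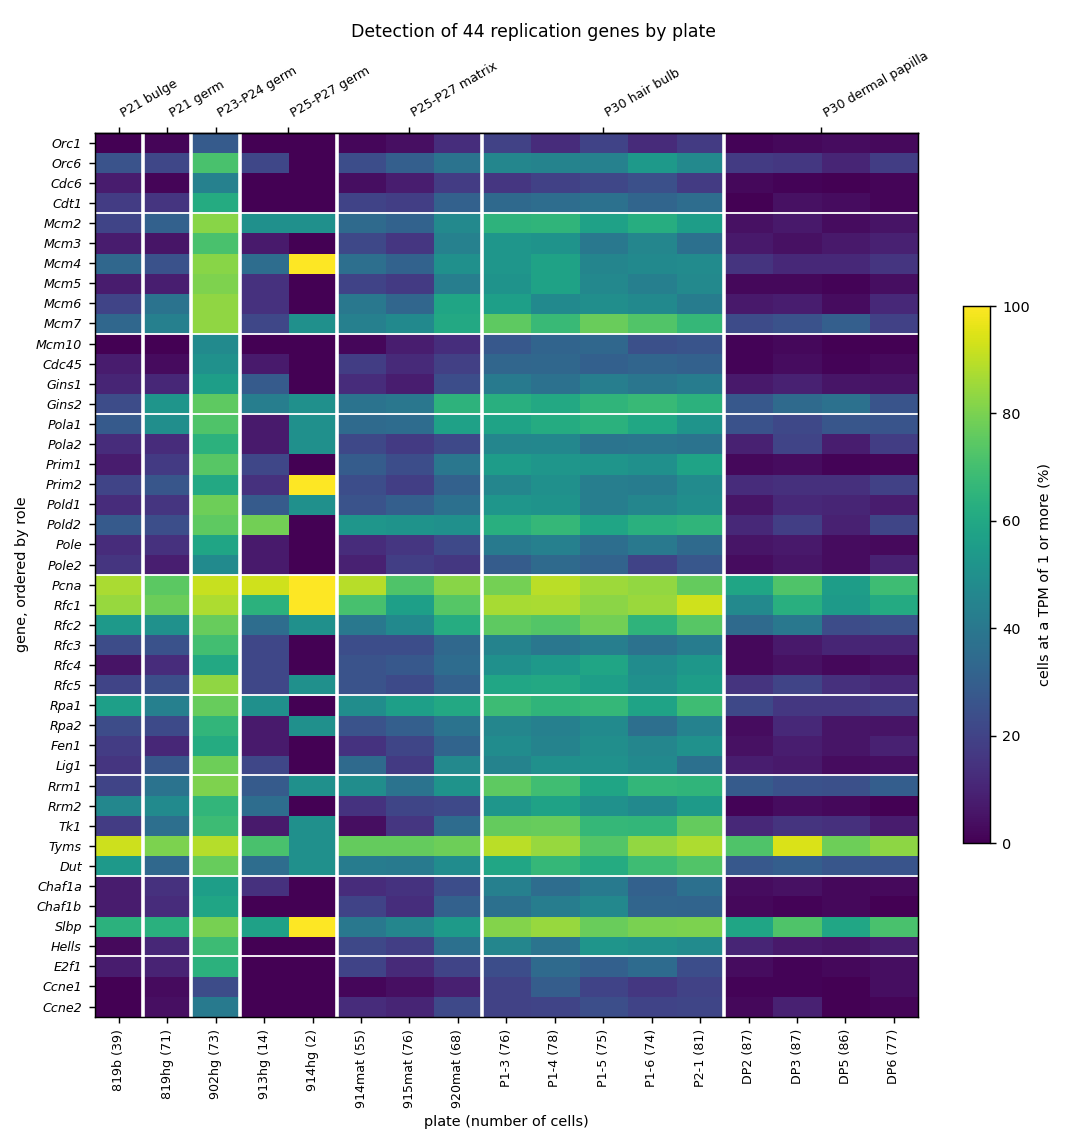
Share of cells (colour, percent) with each of the 44 genes (rows, ordered by role and parted by thin lines) at a TPM of 1 or more, on each plate (columns, with the number of cells). The plate of P23-P24 germ cells, 902hg, is the brightest in most rows, and Pcna, Rfc1, Tyms and Slbp are bright in most plates.

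At least 22 of the 44 members were seen in 69.9% (58 to 80.1) of P23-P24 germ cells, 51 of 73, and in 2 of 71 P21 germ cells (2.82%, 0.343 to 9.81). No cell reached 22 among 39 P21 bulge cells or 16 P25-P27 germ cells, which by a limit of 3 counts allows shares of up to 7.69% and 18.8%. In P25-P27 matrix cells the share was 16.6% (11.7 to 22.5), from 7.89% on plate 915mat through 14.5% on 914mat to 27.9% on 920mat. Leaving out plate 920mat gave 10.7%, and cells with 5000 to 8000 genes gave 24.8%. In the P30 hair bulb the share was 40.9% (35.9 to 46), from 37.3% to 46.2% over its 5 plates, and 50.8% without the cells that carried 3 or more melanocyte markers. Among hair bulb cells with 5000 to 8000 genes it was 26.6%.

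**Figure D2:**
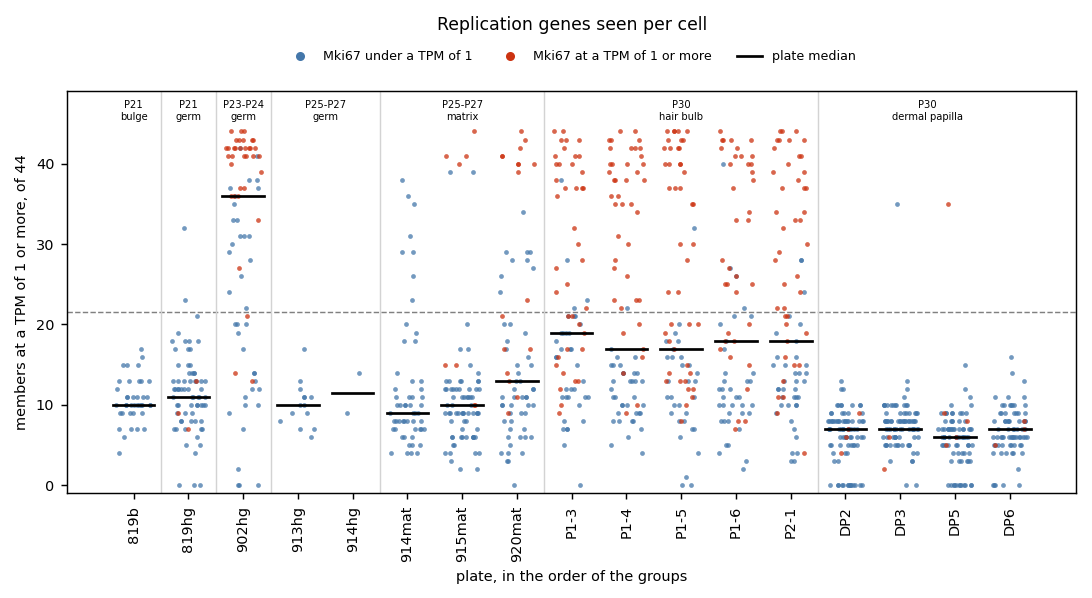
Number of the 44 genes seen in each cell (1 point a cell, seen at a TPM of at least 1), by plate, coloured by whether Mki67 was at a TPM of 1 or more, with the plate median as a black bar and a dashed line below 22. Cells above the line are in the majority in plate 902hg (51 of 73), a minority in the matrix plates (16.6%) and 2 single cells in the dermal papilla.

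The 2 P21 germ cells with at least 22 members showed 23 and 32 members, with 9620 and 8074 genes, and Mcm5 and Cdk1 were listed at 0 in both. Of the 2 dermal papilla cells with as many, each with 35 members, the one on plate DP3 carried 5 of 10 papilla markers and none of 6 basal keratinocyte markers, and had a Cdk1 TPM of 41.1. The one on plate DP5 carried 7 papilla markers but also 6 of 6 keratinocyte markers, with the highest number of genes of its table, 10148.

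From P21 to P23-P24, all 44 members were higher in hair germ cells, with a median difference of 2.25 in mean log2(TPM + 1), and 41 were higher by at least 1. Over 9540 genes seen in 30% or more of the cells of either group, 8.55% were higher and 6.84% lower by that size, with a median of -0.06. Of the 44, 42 passed that share, which a gene could reach through the P23-P24 cells alone, where members were high. Between bulge and germ at P21, 16 members reached it. The counts of higher members cover all 44, passed or not, and none was lower. With a pseudocount of 10, which shrinks differences of low genes, 23 were higher by at least 1, and 41 were among cells with 5000 to 8000 genes or without cells of under 4000. Spike-in rows took a median of 10.7% of a P21 germ cell's TPM and 4.24% at P23-P24, and ribosomal RNA rows 54.3% and 64.8%. With these rows and mitochondrial rows left out and TPM rescaled, the median gene moved from -0.06 to 0.13, the median member from 2.25 to 2.99, and 44 members were higher by at least 1. Levels per cell are given as the lowest, median and highest TPM. The lowest was 0 in each of these groups for every member. Near-empty wells of both groups are counted in it, so it does not show how far the other cells overlapped.

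**Figure D3:**
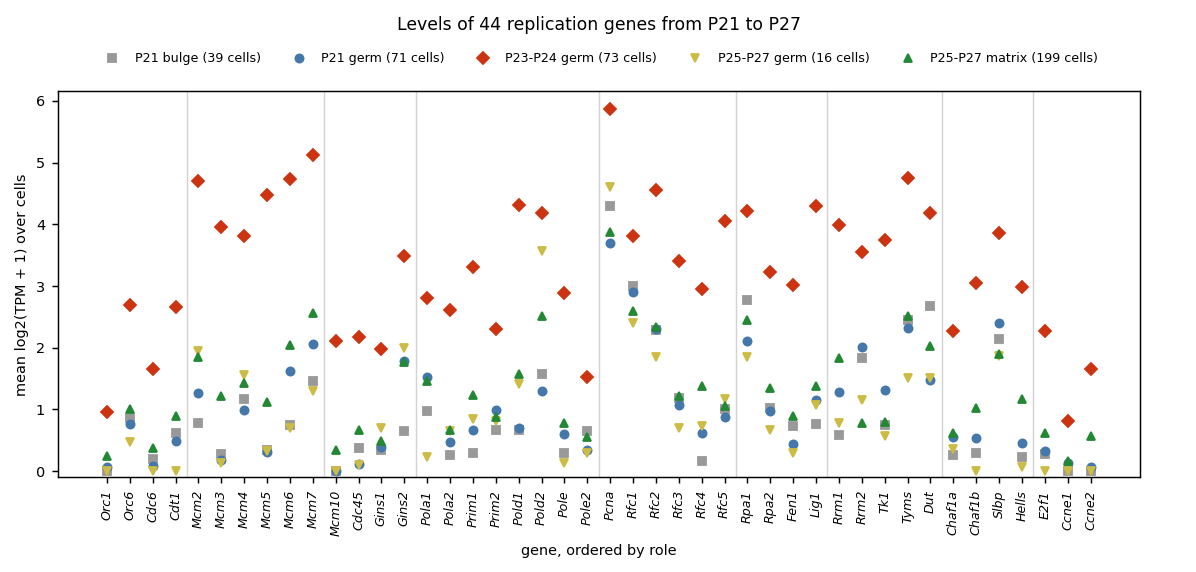
Mean log2(TPM + 1) of each of the 44 genes over the cells of each P21 to P27 group (1 symbol a group, numbers of cells in the legend), with genes ordered by role. The P23-P24 germ symbols lie above all others for each gene, and the remaining groups lie close together for most.

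The helicase ring showed the widest gap of the roles, with a median difference of 3.27 over its 6 genes. Mcm5 went from a median TPM of 0 (highest 24.4) at P21 to 39 (highest 230) at P23-P24. Its share of cells went from 8.45% (3.16 to 17.5) to 80.8% (69.9 to 89.1), and its mean log2(TPM + 1) differed by 4.17. From here on, a single value after a gene's name, with no unit, is such a difference of mean log2(TPM + 1). Mcm3 had a median TPM of 0 (highest 11.7) against 32.5 (highest 157.7), a difference of 3.78. Mcm2 had 0 (highest 81.9) against 52.5 (highest 327.9), a difference of 3.43. The others of the ring, Mcm6, Mcm7 and Mcm4, differed by 3.11, 3.06 and 2.82, and were seen in 38%, 43.7% and 25.4% of P21 germ cells already. All 6 subunits were seen together in 51 of 73 P23-P24 germ cells (69.9%) and in 0 of 71 P21 germ cells. Of the 51, 49 also held 22 or more members. Levels within the ring were uneven, since mean TPM, which is scaled by length, ran from 25.6 for Mcm4 to 76.7 for Mcm7 at P23-P24. Mcm7 was the highest of the 6 in 6 of the 7 groups, and Mcm2 in P25-P27 germ cells.

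Origin licensing genes differed less. Cdt1, the loader that geminin holds back outside G1, stood at a mean TPM of 1.62 against 15 (2.17). Orc6, a small subunit of the origin recognition complex, stood at a mean TPM of 3.61 against 12.2 (1.93). Cdc6, an ATPase of helicase loading, was seen in 1 of 71 P21 germ cells and in 43.8% (32.2 to 55.9) at P23-P24 (1.58). Orc1, the subunit whose level varies with the cycle, was seen in 28.8% (18.8 to 40.6) at P23-P24 and differed by 0.90. The median TPM of Orc1 and Cdc6 was 0 even at P23-P24, so each of them was missing from most cells there.

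Among genes that activate the helicase, Mcm10 was listed at 0 in all 71 P21 germ cells and all 39 bulge cells, and at P23-P24 was seen in 47.9% (36.1 to 60) with a mean TPM of 14.5 and a highest of 139.9. Cdc45 went from 2.82% to 50.7% of cells (2.06). Gins1 and Gins2, parts of the GINS complex, differed by 1.59 and 1.71. Gins2 was seen in 52.1% of P21 germ cells already, but 67.3% of its exon bases overlap exons of Gse1 on the opposite strand, and reads of the 2 genes cannot be told apart there.

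Polymerase genes ranged widely. Pold1, the catalytic subunit of polymerase delta, stood at a median TPM of 0 at P21 (highest 98.4) and 33.2 at P23-P24 (highest 228.8), with 15.5% against 78.1% of cells (3.61). Its partner Pold2 differed by 2.88. Pole and Pole2, subunits of the leading-strand polymerase epsilon, differed by 2.29 and 1.19. Prim1 and Prim2, the primase pair, differed by 2.64 and 1.31, and Pola2 and Pola1, their polymerase alpha partners, by 2.14 and 1.27. In both pairs the subunit with the smaller difference was seen more often at P21: Pola1 in 49.3% of germ cells against 12.7% for Pola2, and Prim2 in 26.8% against 16.9% for Prim1.

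Pcna, the sliding clamp, was the most abundant member in P23-P24 germ cells, at a median TPM of 101.4 (highest 379.5) against 22.4 (highest 121.4) at P21 (2.17). It was seen in 74.6% of P21 germ cells, so its change lay in level more than in the share of cells. The clamp loader split: Rfc5 (3.19), Rfc4 (2.35), Rfc3 (2.33) and Rfc2 (2.25) were higher by over 2, and Rfc1, the large subunit, by 0.91. Rfc1 was seen in 77.5% of cells at P21 and 87.7% at P23-P24. Lig1, which seals the lagging strand, differed by 3.14, Fen1, the flap nuclease, by 2.58, and the single-strand binding subunits Rpa2 and Rpa1 by 2.26 and 2.12. Of the exon bases of Fen1, 78.8% overlap those of Gm10143 on the opposite strand.

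Among suppliers of nucleotides, Tyms, thymidylate synthase, was seen in 80.3% (69.1 to 88.8) of P21 germ cells and 89% (79.5 to 95.2) of P23-P24 germ cells, but its median TPM was 4.12 (highest 93.7) against 36.5 (highest 355.4). Dut, which removes dUTP, differed by 2.70, Rrm1, the large subunit of ribonucleotide reductase, by 2.69, and Tk1, thymidine kinase, by 2.42. Rrm2, the small subunit that limits the enzyme in cycling cells, was seen in 47.9% of P21 germ cells and 65.8% at P23-P24 (1.54). In P21 germ cells with Rrm2, the median number of the other 43 members was 11, and in those without it 10, whereas at P23-P24 these medians were 40 and 17.

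Genes of chromatin assembly and S phase control completed the set. Hells, a chromatin remodeller of DNA methylation, differed by 2.53, Chaf1b and Chaf1a, subunits of the histone chaperone at the fork, by 2.50 and 1.71, and Slbp, which stabilises histone transcripts in S phase, by 1.46. Chaf1a shares 52.5% of its exon bases with exons of Ubxn6 on the opposite strand. E2f1, an E2F factor that activates S phase genes, had a median TPM of 0 (highest 17) against 4.63 (highest 48.2), in 9.86% against 64.4% of cells (1.95). Cyclin E2, Ccne2, was seen in 4.23% against 41.1% (1.58), and cyclin E1, Ccne1, in 2.82% against 23.3% (0.69), the smallest difference of all members. The median TPM of both cyclins E was 0 at both ages.

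Beyond the members, 23 of 36 other replication genes were higher by at least 1 and none lower, led by Uhrf1, which carries DNA methylation through replication (3.70), Gmnn, the inhibitor of Cdt1 (2.98), Asf1b, a histone chaperone listed at 0 in all P21 germ cells (2.29), and Wdhd1, a fork protein (2.24). Of 12 replication checkpoint genes, 5 were higher by at least 1, the highest at 2.76. Among the others were Brca1 at 2.07, Wee1 at 2.02 and Chek1 at 1.85. Of 20 genes of G2 and mitosis, 16 were. Their median was 1.42, led by Cdk1 (3.21), Top2a (2.76) and Ccna2 (2.47), while Mki67 differed by 2.06. Of 27 regulators of the E2F, RB and CDK network, 5 were higher and 3 lower by at least 1, with a median of 0.34. Tfdp1, the dimer partner of E2F factors, stood at 1.86, Rbl1, a retinoblastoma relative, at 1.84, and Mycn and Myc at -1.79 and -1.56. Of 8 housekeeping genes, only Gapdh was higher by at least 1 (1.42), with Tpt1 at -0.74, Eef1a1 at -0.63 and Actb at -0.42.

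The order of onset was read in the 73 P23-P24 germ cells by setting each member beside Mki67, a nuclear protein of cycling cells, which was seen in 35 of them. A count of cells with a member but not Mki67 that exceeds the count with Mki67 but not the member means the same as a member seen in more cells than Mki67, and therefore also depends on how readily each transcript is detected. It is a snapshot of cells and not a time course. By this count 38 of 44 members were seen without Mki67 more often than the reverse, 2 were equal and 4 less often. Of 19 other genes of G2 and mitosis the same held for 2, Top2a (9 cells against 3) and Cdk1 (6 against 5). In P21 germ cells, where 3 of 71 cells showed Mki67, it held for 38 members as well, and shares at P21 are therefore given beside those at P23-P24.

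No cell showed Mki67 without Mcm5, Rrm1, Rrm2 or Tyms, whereas 24, 24, 13 and 30 cells showed these genes without Mki67. Mcm2, Mcm4, Mcm6, Pcna and Slbp were missing in 1 Mki67 cell each, against 26, 26, 27, 33 and 24 cells with the gene and no Mki67. At the other end stood Ccne1, seen alone in 2 cells while Mki67 was seen without it in 20. Orc1 (7 against 21), Cdc6 (7 against 10) and Ccne2 (5 against 10) were also seen less often, and Mcm10 (6 and 6) and Pole2 (11 and 11) equally often.

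Among the 38 P23-P24 germ cells without Mki67, the median member was seen in 52.6% of cells, against 20.6% in the 68 P21 germ cells without Mki67, and 91.4% in the 35 P23-P24 cells with it. For genes of G2 and mitosis, the median share was 5.26% without and 65.7% with Mki67 at P23-P24, and 1.47% without it at P21. Compared with P21, 41 members were seen in a larger share of Mki67-negative cells at P23-P24 and 3 in a smaller, with a median gain of 25 percentage points. Mcm5 gained most, from 8.82% to 63.2%, followed by Rfc5 (23.5% to 73.7%), Mcm3 (5.88% to 55.3%), Pold1 (16.2% to 63.2%), Mcm4 (25% to 68.4%) and E2f1 (10.3% to 52.6%). By role, the median gain was 39.7 points for the helicase ring and 8.75 points for the G1/S control genes. It was 6.50 points for nucleotide supply.

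**Figure D4:**
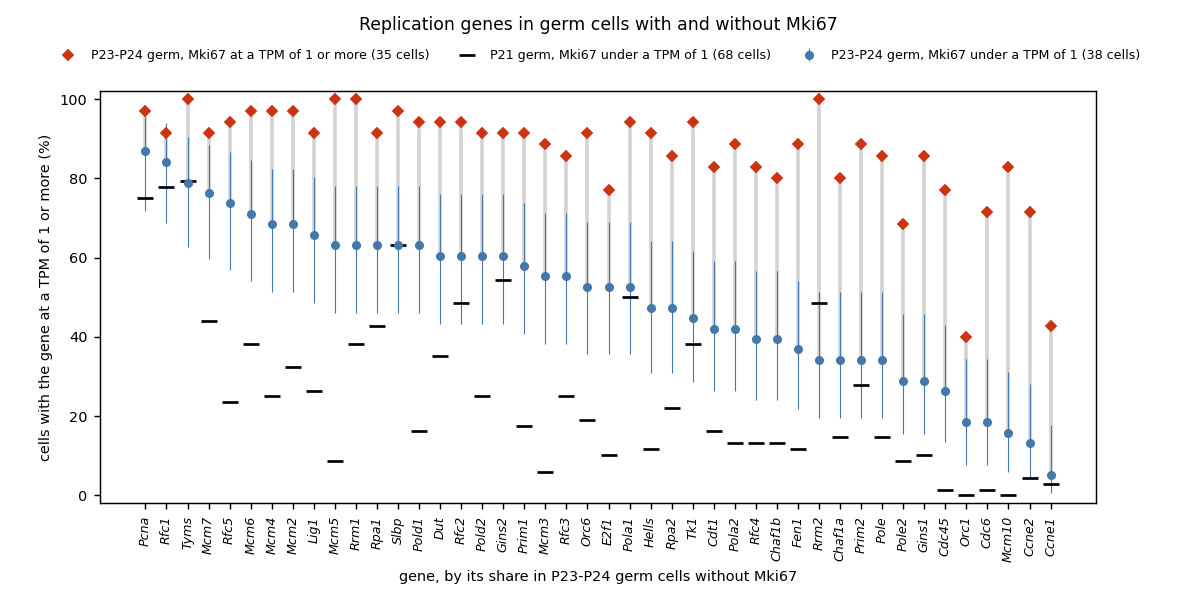
Share of cells (percent) in which each of the 44 genes was seen (TPM of at least 1), for P23-P24 germ cells without Mki67 (blue, with 95% exact binomial intervals), P23-P24 germ cells with Mki67 (red) and P21 germ cells without Mki67 (black bars). Blue points lie well above the black bars for Mcm5, Rfc5 and Mcm3, on or below them for Slbp, Tyms and Rrm2, and low for Ccne1, Ccne2 and Mcm10.

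Rrm2 ran against the rest: without Mki67 it was seen in 48.5% of P21 germ cells and 34.2% of P23-P24 germ cells, and with Mki67 in 100%. Its mean TPM was 8.94 without and 76.2 with Mki67 at P23-P24. Tyms (79.4% and 78.9% without Mki67 at the 2 ages) and Slbp (63.2% at both) did not gain in share. Tyms was seen in all Mki67 cells, and its mean TPM was 25.1 in cells without Mki67 and 77.3 over all P23-P24 germ cells. Mcm10 (15.8% without and 82.9% with Mki67), Ccne2 (13.2% and 71.4%) and Rrm2 had the largest contrasts by Mki67 among the members. Rfc1 (84.2% and 91.4%) and Pcna (86.8% and 97.1%) had the smallest in share.

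At least 22 members were seen in 19 of the 38 Mki67-negative P23-P24 germ cells (50%, 33.4 to 66.6) and in 32 of the 35 positive ones (91.4%, 76.9 to 98.2). Of these 19 cells, 10 showed none of Mki67, Top2a and Cdk1. All 19 cells together held a median of 2 of 19 mitosis genes (0 to 9) and 22 of 36 other replication genes. These medians were 15 and 31.5 in the 32 Mki67 cells with at least 22 members. The 22 cells under that number of members, the 5 near-empty wells among them, held a median of 0 mitosis genes and 12 other replication genes. Median genes per cell were 5928 in these 22 cells, 6681 in the 19 and 7653 in the 32, and its part in the result was not tested. Among the 54 cells with 5000 to 8000 genes, 62.1% (42.3 to 79.3) of Mki67-negative cells had at least 22 members. Without cells of under 4000 genes it was 57.6% (39.2 to 74.5). With Top2a in place of Mki67 the share was 37.5% (21.1 to 56.3), 12 of 32 cells.

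Grouping P23-P24 germ cells by how many of the other members they held gave an order of detection. The lowest class had 22 or 23 cells, depending on the gene. It included the 5 near-empty wells, which held at most 20 members each. Where under 22 others were seen, Pcna was found in 73.9% of cells, Tyms in 69.6%, Rfc1 in 60.9%, Rfc5 in 56.5% and Mcm6 in 52.2%. Mcm10 and Ccne2 were found in 0%, and Orc1, Cdc6, Ccne1, Gins1, Chaf1a and Fen1 in 4.55% each. Where 22 to 37 others were seen, Mcm2, Mcm4, Mcm5, Mcm7, Pcna and Rfc1 were found in 100%, while Rrm2 was found in 56.5%, Mcm10 in 39.1%, Cdc6 and Ccne2 in 30.4% and Ccne1 in 9.09%. With 38 or more others, Ccne1 (48.3%) and Orc1 (42.9%) still missed most cells. Mki67 was found in 13.6%, 31.8% and 86.2% of the 3 classes. The classes are drawn from the genes themselves, so the order describes levels and detection and does not time the genes.

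**Figure D5:**
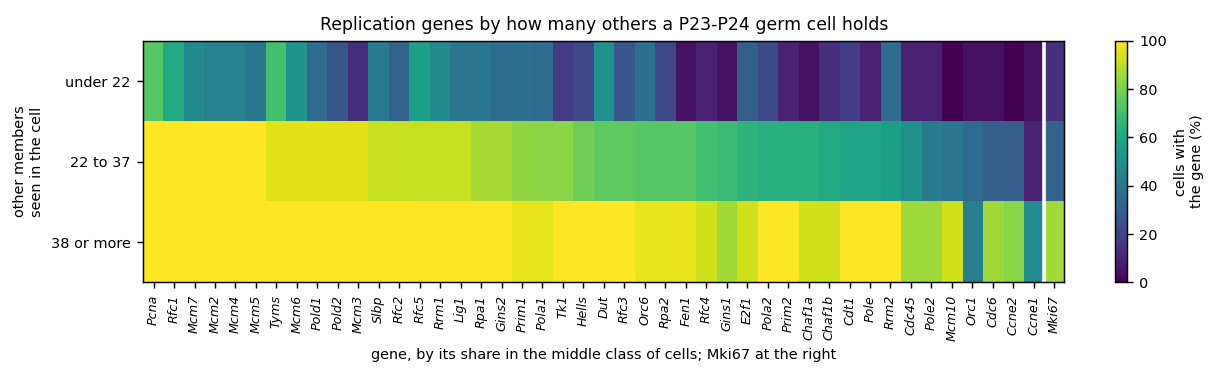
Share of P23-P24 germ cells (colour, percent) with each gene at a TPM of 1 or more, in cells with under 22, 22 to 37, or 38 or more of the other 43 genes (rows), with genes ordered by the middle row and Mki67 at the right, where the row counts all 44. The helicase ring, Pcna and Rfc1 are at or near 100% in the middle row, and Mcm10, Orc1, Cdc6, Ccne2 and Ccne1 under 40%.

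From P23-P24 germ to P25-P27 matrix cells, all 44 members were lower, with a median difference of -1.95, and 41 were lower by at least 1. Over 9205 genes seen in 30% or more of the cells of either group, 42 members among them, 11.4% were lower and 0.945% higher by that size, and the median gene stood at -0.30. With a pseudocount of 10 the count was 16. This comparison shares its P23-P24 cells with the previous one, so the high values of those cells enter both. Members could pass the share through those cells alone here too. Mcm5 stood at -3.35 (-3.77 to -2.62 over the 3 matrix plates), Rfc5 at -3.00, Tk1 at -2.95, Lig1 at -2.92, Mcm2 at -2.85 and Rrm2 at -2.78. Pole2 (-0.98), Orc1 (-0.72) and Ccne1 (-0.65) were lower by under 1. Of the other lists, 21 of 36 other replication genes, 13 of 20 genes of G2 and mitosis and 5 of 12 checkpoint genes were lower by at least 1, with Uhrf1 at -3.23, Gmnn at -2.24 and Dnmt1, the maintenance DNA methyltransferase, at -1.80. Cdkn1a, the inhibitor p21, was the 1 regulator higher by at least 1, at a mean TPM of 59.4 against 12.5 (1.38), and E2f8 (-1.21), Ccnd3 (-1.17) and Cdk2 (-1.12) were lower. Gapdh, a housekeeping gene, was lower too (-1.24).

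Within the matrix cells the members were unevenly spread. Of all matrix cells, 99 held 10 or fewer members, 67 held 11 to 21, 14 held 22 to 33 and 19 held 34 or more. Of the 33 with at least 22, 19 showed no Mki67. On plate 914mat, Mki67 was at a TPM of 1 or more in 0 of 55 cells (which allows up to 5.45%), while 8 cells held at least 22 members and 10 cells showed Top2a. Tk1 ranged widely by plate, from 3.64% of cells on 914mat through 15.8% on 915mat to 35.3% on 920mat, a range chosen for mention after its values were seen. Rrm2 was seen in 19.6% of matrix cells, under its share in P21 germ, although Rrm1 was seen in 45.7%. Differentiated epidermis markers, at least 3 of 6, marked 27 matrix cells (13.6%), none of which held 22 members. The summed TPM of those markers ran from 0 to 12484 over matrix cells, and 2 of the 6 were seen in 30% or more of them. Without these 27 cells, 40 members were lower than in P23-P24 germ by at least 1.

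The P21 germ cells compared with P23-P24 above were also set against the bulge. Between bulge and germ at P21, both resting and each on 1 plate (819b and 819hg), 2 of 44 members differed by at least 1: Dut was higher in the bulge, at a mean TPM of 25 against 8.23 (1.19, in 53.8% against 33.8% of cells), and Gins2 lower, at 1.71 against 9.16 (-1.12, in 23.1% against 52.1%). Of 8847 genes, each seen in 30% or more of the cells of either group, 4.34% were higher and 8.08% lower by that size. Of the 44 members, 16 reached that share, Dut and Gins2 among them. The median over all 44 was -0.04 and the median gene stood at -0.21. The count was 0 with a pseudocount of 10, 7 with a pseudocount of 0.1 and 8 by the ratio of mean TPM. Outside the members, Mcmbp, which binds the helicase ring, stood at -1.27, Dbf4, an activator of the Cdc7 kinase, at -1.03, Pole4 at 1.02 and Rnaseh2a at -0.85. Among regulators Mycn stood at -3.16, Cdk6 at -1.81, Ccnd2 at -1.54 and Cdkn1a at 1.06. Of checkpoint genes, Atrip stood at -0.83 and Brca2 at -0.79, and of mitosis genes Cenpa at -0.51.

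At P25-P27, the matrix cells already compared with P23-P24 germ were also set against the 16 germ cells sorted at the same age. Of 44 members, 36 were higher in the matrix (median 0.43) and 8 by at least 1: Mcm6 (1.34), Mcm7 (1.26), Pola1 (1.23), Hells (1.11), Mcm3 (1.07), Rrm1 (1.04), Chaf1b (1.02) and Tyms (1.01). Pold2 was lower by at least 1, at a mean TPM of 21.6 against 36.8 (-1.06). Of 8423 genes seen in 30% or more of the cells of either group, 5.22% were higher and 8.07% lower by that size, with a median of -0.03. Of the 44 members, 21 reached that share, while Mcm3, Hells and Chaf1b, counted among the 8, did not. Without plate 920mat the count was 0, and without the 14 cells of plate 913hg, which leaves 2 germ cells, it was 13. Orc1, Cdc6, Cdt1, Mcm10, Chaf1b, E2f1, Ccne1 and Ccne2 were listed at 0 in all 16 germ cells, and in the matrix were seen in 5.03% to 23.1% of cells. None of 36 other replication genes was higher by at least 1 (Rnaseh2a 0.98, Topbp1 0.97), and Orc2 (-1.19) and Pole4 (-1.07) were lower. Cdkn1a (1.56) and Ccnd2 (1.32) were higher among regulators, Ccnd3 was lower (-1.09) and Rb1 stood at 0.92. No mitosis or checkpoint gene differed by 1, with Top2a at 0.59, Cdk1 at 0.54 and Wee1 at 0.67. Of 20 mitosis genes, 0 reached the 30% share in either group, and of 12 checkpoint genes 5 did. Genes seen so rarely can differ only little on this scale. All 20 mitosis genes were higher in the matrix (median 0.28). Mki67 was seen in 0 of the 16 germ cells and in 12.6% of matrix cells.

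In the P30 hair bulb, the members split the cells. Of its cells, 77 held 10 or fewer members, 150 held 11 to 21 and 52 held 22 to 33, and the rest held 34 or more. Mki67 was seen in 53.6% (48.5 to 58.7), and 15 members were seen without it more often than the reverse, 28 less often and 1, Prim1, equally. The 15 were Mcm2, Mcm7, Gins2, Pola1, Pold2, Pcna, Rfc1, Rfc2, Rfc5, Rpa1, Rrm1, Tk1, Tyms, Dut and Slbp. At least 22 members were seen in 13 Mki67-negative cells, 7.30% (3.95 to 12.2) of them, and in 69.9% (63.1 to 76.1) of the positive ones, of which 62 held fewer. Set beside the P23-P24 germ cells, where these shares were 50% and 91.4%, these come from another strain, sort and table. Those 62 cells held a median of 15 members and 3 of 19 mitosis genes (0 to 19).

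Bulb cells with at least 3 melanocyte markers held a median of 16 members and the others 23. Of genes per cell, the median was 6600 without and 7957 with Mki67, and the part of either in the result was not tested. All 6 helicase subunits were seen in 29.7% (25.2 to 34.5) of bulb cells, from 22.2% on plate P2-1 to 34.6% on P1-4. Tk1 was seen in 72.7% of bulb cells, beside 19.1% of P25-P27 matrix cells, and E2f1 in 29.4% beside 17.1%. Reads of Pcna and its pseudogene cannot be told apart with certainty: Pcna-ps2 had a mean TPM of 14.6 and was seen in 65.9% of bulb cells and 36.5% of papilla cells, but in 2.51% to 6.25% of the cells of the earlier groups, so the level of Pcna at P30 is uncertain. Plate means could be uneven: that of Mcm7 was 64.6 on plate P1-5 and 20.7 to 35.6 on the other plates. Its highest cell stood at 1834, and the part of that cell in these means was not tested.

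Dermal papilla cells, sorted as mesenchyme, gave the level of these genes in a type where Mki67 was seen in 4.15% (2.29 to 6.87) of cells. Tyms (81.9%), Slbp (65.3%), Pcna (63.8%) and Rfc1 (56.4%) were still seen in over 50% of them, at mean TPM of 6.42, 13.2, 12.3 and 10.3. Rrm2 was seen in 1.78%, Ccne1 in 1.48%, Chaf1b in 1.48%, Cdc6 in 1.19% and Mcm10 in 0.89%. None of the 6 helicase subunits was seen in 57% (51.5 to 62.3) of papilla cells, and all of them in 2 cells. Pcna, Tyms, Slbp and Rfc1 were thus each seen in most papilla cells, while Mcm10, Cdc6, Chaf1b, Ccne1 and Rrm2 were each seen in under 2% of papilla cells.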

How the data were processed

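Values are the TPM that the authors deposited in 3 tables. The submitters' processing notes name Bowtie2 2.2.9, RSEM 1.2.30 and the mm10 build. Columns summed to 999999.02 to 1000000.77, no 2 were identical, and all 1119 matched a sample. Spike-in controls (92 rows), ribosomal RNA (359) and mitochondrial genes (37) were set aside when genes were counted. The papilla table parts its fields with characters other than tabs, so the values the authors deposited there were listed as other and read as TPM.

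Sizes are differences of mean log2(TPM + 1), a scale that understates changes of low genes, and a size of 1 was called. The log2 values were computed here from the deposited TPM. No test was made, since the labels name no animals. Shares have exact Clopper-Pearson intervals at 95%, and 0 cells a limit of 3 counts. Background shares cover genes seen in 30% or more of the cells of either group. Positions and overlaps came from GENCODE M21, and all 44 identifiers matched. Python 3.11.15, numpy 2.4.6, pandas 2.3.3 and scipy 1.17.1 were used. The differences were tested with changes planted in shuffled cells, the onset counts on a small made-up example and the motif search on simulated sequences.

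The members and gene lists were chosen with earlier results of these data known. The rule for named genes took all members, Mki67 and up to 4 genes of each other list with the largest absolute difference in each comparison. Alternatives changed the pseudocount, scaling, averaging, cells, plates, detection limit and reference gene. Those by depth for the onset, without melanocyte-marker cells and over the whole promoter window were chosen after seeing the data.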

Additional observations from a re-analysis of the deposited data

Results flagged for a closer look

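Of 10 summaries by plate at P30 (shares of cells with 22 members, with Mki67, with all or none of the 6 helicase subunits, and median members per cell, in 2 groups), 1 had a plate far from the others. Dermal papilla cells of plate DP5 held a median of 6 members, against 7 on each of the other 3 plates, the smallest step that a count can take. About 1 in 20 such groups is picked out by chance where values are not tied. With equal medians on the other 3 plates, any differing value is picked out whatever its size, so that rate does not hold here.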

How the results depend on the processing

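Of 85 alternative values of the counts and shares, 66 stayed close to those reported and 19 moved. A pseudocount of 10 gave 23 members higher by at least 1 at P23-P24 than at P21 in the germ, 16 lower in the P25-P27 matrix than in the P23-P24 germ, 0 apart between bulge and germ, and 0 higher in the P25-P27 matrix than in the P25-P27 germ. A pseudocount of 0.1 gave 7 for bulge against germ and 16 for matrix against germ at P25-P27, the log2 ratio of mean TPM 8 and 21, and cells with 5000 to 8000 genes 4 and 13. Leaving out 1 plate at a time gave 0 (without 920mat) to 13 (without 913hg) for the latter, and without 913hg single members ran from -2.68 (Mcm4) to 2.52 (Pold2), with Mcm7 turned to -0.03 and Pold2 turned too.

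The share of cells with at least 22 members, among cells with 5000 to 8000 genes, was 0% in P21 germ, 24.8% in P25-P27 matrix and 26.6% in the P30 bulb. Leaving out 1 plate gave 10.7% to 22% for the matrix. In the bulb, any TPM above 0 gave 48.7%, a TPM of 5 or more 30.5%, and leaving out cells with melanocyte markers 50.8%. The onset count ran from 35 to 39 members and the share of Mki67-negative cells with at least 22 members from 37.5% to 62.1%. Over the whole 300 bases of the promoter windows, 13 of 37 members (35.1%) held an E2F word, against 2.61% of all genes. Groups on 1 plate could not be recomputed without it. No paired analysis was possible because each group counts as 1 sample and no test was made. Plate names share a number between bulge and germ at P21 (819b and 819hg) and between germ and matrix at P25-P27 (914hg and 914mat), and the labels used here do not say what it marks. Read depth behind single cells is unknown, so for a gene at 0 absence and lack of detection cannot be told apart.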

Other observations

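A complete helicase ring, all of Mcm2 to Mcm7 seen in 1 cell, was found in 33 matrix cells at P25-P27, of which 30 also held at least 22 of the 44 genes and 18 showed no Mki67. In the P30 hair bulb, 10 cells with a complete ring showed no Mki67, and in the P23-P24 germ 20 of 51 did not. Among 36 replication genes outside the set, 26 were seen without Mki67 in more P23-P24 germ cells than the reverse, with a median share of 47.4% in cells without Mki67 and 85.7% in cells with it. In P21 germ cells the same held for 28 of the 36.

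P25-P27 matrix cells with at least 22 of the 44 genes and no Mki67, 19 in number, held a median of 1 of 19 mitosis genes (0 to 4), and the 14 with Mki67 held 12. Of the 19, 8 stood on plate 914mat, where Mki67 was seen in 0 of 55 cells. These classes are described and were not tested.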
